A study of Mus musculus with 12 samples.

Results

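Voltage-gated ion channels and their partners were followed as a group of 50 genes in the cerebral cortex and hippocampus of WT and 5 × FAD mice. The group was defined by gene name only, as the pore-forming and auxiliary subunits of sodium, calcium, potassium and HCN channels, and the rule uses no measured value. Of these 50 genes, 34 had at least 1 row in a count table made up mostly of non-coding transcripts, and together they held 111 of its 48033 rows. The other 16 (Scn2b, Scn4b, Cacna1b, Cacna1d, Cacna1i, Cacna2d3, Cacnb3, Kcna2, Kcnb2, Kcnc2, Kcnc4, Kcnd2, Kcnh1, Kcnn1, Hcn2 and Hcn4) were not analysed here.

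All mice were 7 months old and of C57BL/6J background, and the WT mice were non-transgenic. 5 × FAD mice overexpress human APP and PS1 with familial Alzheimer's disease mutations under neuronal Thy1 elements, so the transgenes are made mainly in neurons. There were 3 libraries in each of 4 groups, namely WT cortex, 5 × FAD cortex, WT hippocampus and 5 × FAD hippocampus, and each mouse gave both its cortex and its hippocampus. Females and a male are stated for each genotype. Y-linked transcripts were found in all 6 libraries of WT mice and, among 5 × FAD libraries, only in library 3 of each region. This does not match the females stated for the WT mice, and the reason was not tested. The libraries labelled 5 × FAD and WT thus differed in Y-linked RNA, while the regions did not. Effects of genotype and of sex cannot be fully told apart in the genotype comparisons. The genotype results are therefore also given for the libraries with Y-linked transcripts. Library totals ran from 3517967 to 5014389 counts, and the channel genes took 0.334% to 0.436% of them.

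Neurons fire and release transmitter through these proteins. Sodium channels carry the rising phase of the action potential, calcium channels couple depolarization to transmitter release and gene expression, potassium channels repolarize the membrane and set firing patterns, and HCN channels conduct at hyperpolarized potentials and shape resting excitability. The rows measured here are mostly not the mRNAs that encode these proteins but other transcripts of the same genes, many of which keep an intron that the coding transcripts splice out.

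Among the 111 rows, 58 were annotated as retained intron, 52 as processed transcript (spliced but without an open reading frame) and 1, Kcnma1-205, as protein coding. Retained intron rows had a median length of 1516.5 bases, and a median of 45.25% of their bases lay outside every exon of the gene's coding transcripts. Processed transcript rows were shorter, with a median of 747 bases, and a median of 17.95% of their bases lay outside such exons. Retained intron rows carried 144214 counts over the 12 libraries, processed transcripts 34106 and Kcnma1-205 19323. In 104 of the 111 rows there was more than 1 exon, 22 rows overlapped a gene on the opposite strand and 5 overlapped another gene on the same strand, so reads of these rows may be shared with the neighbour. Because most rows also share exons with the gene's mRNA, a count can hold reads of the mRNA, and the deposited values do not tell them apart.

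The sequences show where the rows on which the results turn leave the coding message. Where a row ran from coding exon straight into sequence outside the exons of coding transcripts, 61 of 64 such boundaries opened with GT, and where it ran back into coding exon, 41 of 45 closed with AG, the usual ends of an intron. Each stretch below is 120 bases of the GENCODE M21 transcript (GRCm38), written 5′ to 3′ on the gene's strand, with coding exon in lower case and bases outside the exons of coding transcripts in capitals. Kcnt1-207 is shown at chr2:25909277-25909396 (plus strand) and Kcnt1-206 at chr2:25888829-25888948 (plus), because these rows fell in the WT hippocampus. Kcnh7-204 at chr2:63181966-63182085 (minus) is the single row of a gene that also fell there. Cacna1h-210 at chr17:25388472-25388591 (minus), Cacna1e-202 at chr1:154883905-154884024 (minus) and Scn3b-204 at chr9:40277202-40277321 (plus) belong to the genes that were higher in the hippocampus of both genotypes, and Cacna1g-216 at chr11:94427291-94427410 (minus) to the gene with the smallest p for genotype. Cacna1e-202 is a single exon with no base in an exon of the coding transcripts and is therefore all in capitals.
Kcnt1-207: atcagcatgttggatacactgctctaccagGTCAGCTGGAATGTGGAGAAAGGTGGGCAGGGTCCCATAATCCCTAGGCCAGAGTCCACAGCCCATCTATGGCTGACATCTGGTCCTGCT
Kcnt1-206: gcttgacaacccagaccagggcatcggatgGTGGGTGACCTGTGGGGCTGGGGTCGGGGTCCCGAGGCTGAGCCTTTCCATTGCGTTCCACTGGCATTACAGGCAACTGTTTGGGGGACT
Kcnh7-204: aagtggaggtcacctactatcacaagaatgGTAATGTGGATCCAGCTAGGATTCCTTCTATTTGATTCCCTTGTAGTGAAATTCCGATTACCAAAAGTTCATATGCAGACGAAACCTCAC
Cacna1h-210: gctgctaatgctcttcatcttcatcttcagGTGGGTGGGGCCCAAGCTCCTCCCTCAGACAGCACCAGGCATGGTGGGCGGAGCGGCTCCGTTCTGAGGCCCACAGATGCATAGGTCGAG
Cacna1e-202: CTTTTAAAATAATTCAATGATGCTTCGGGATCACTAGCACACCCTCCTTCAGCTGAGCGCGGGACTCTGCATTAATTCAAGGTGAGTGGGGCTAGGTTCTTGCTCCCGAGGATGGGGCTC
Scn3b-204: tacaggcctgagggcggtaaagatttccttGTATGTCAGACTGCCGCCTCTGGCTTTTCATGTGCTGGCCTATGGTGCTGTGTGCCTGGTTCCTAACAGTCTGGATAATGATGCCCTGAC
Cacna1g-216: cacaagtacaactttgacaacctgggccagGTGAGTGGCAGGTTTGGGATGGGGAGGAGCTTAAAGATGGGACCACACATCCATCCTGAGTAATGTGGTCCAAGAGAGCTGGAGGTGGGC

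Levels spanned a wide range among the genes. On the CPM scale (counts relative to the library size after edgeR's TMM scaling), gene sums averaged from 0.763 for Kcna1 to 531.5 for Kcnt1 over the 12 libraries, 11 genes averaged above 100 CPM and 7 below 10 CPM. Between genes, levels were compared as CPM per kilobase of row, summed over a gene's rows. On that scale Cacna1a, the P/Q-type channel of presynaptic terminals, was highest with a mean of 257.3 CPM per kb, followed by Cacnb2 with 135.6, Kcnt1 with 122.9, Cacna1e with 105.5 and Cacna1g with 102.3. Cacna1a ran from 134.9 to 403.9 CPM per kb over the libraries and Cacnb2 from 99.7 to 175.5, so neighbours in this order overlapped. The next 3 also overlapped, since Kcnt1 ran from 52.5 to 201.5 CPM per kb, Cacna1e from 65.7 to 141.1 and Cacna1g from 70.5 to 136.4. Kcna1 and Kcnc1 were the lowest genes by CPM, at 0.0 to 1.64 CPM and 0.454 to 3.82 CPM, and neither passed the filter on low counts in any comparison. The counting floor of 3 reads corresponded to 0.598 to 0.853 CPM.

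**Figure D1:**
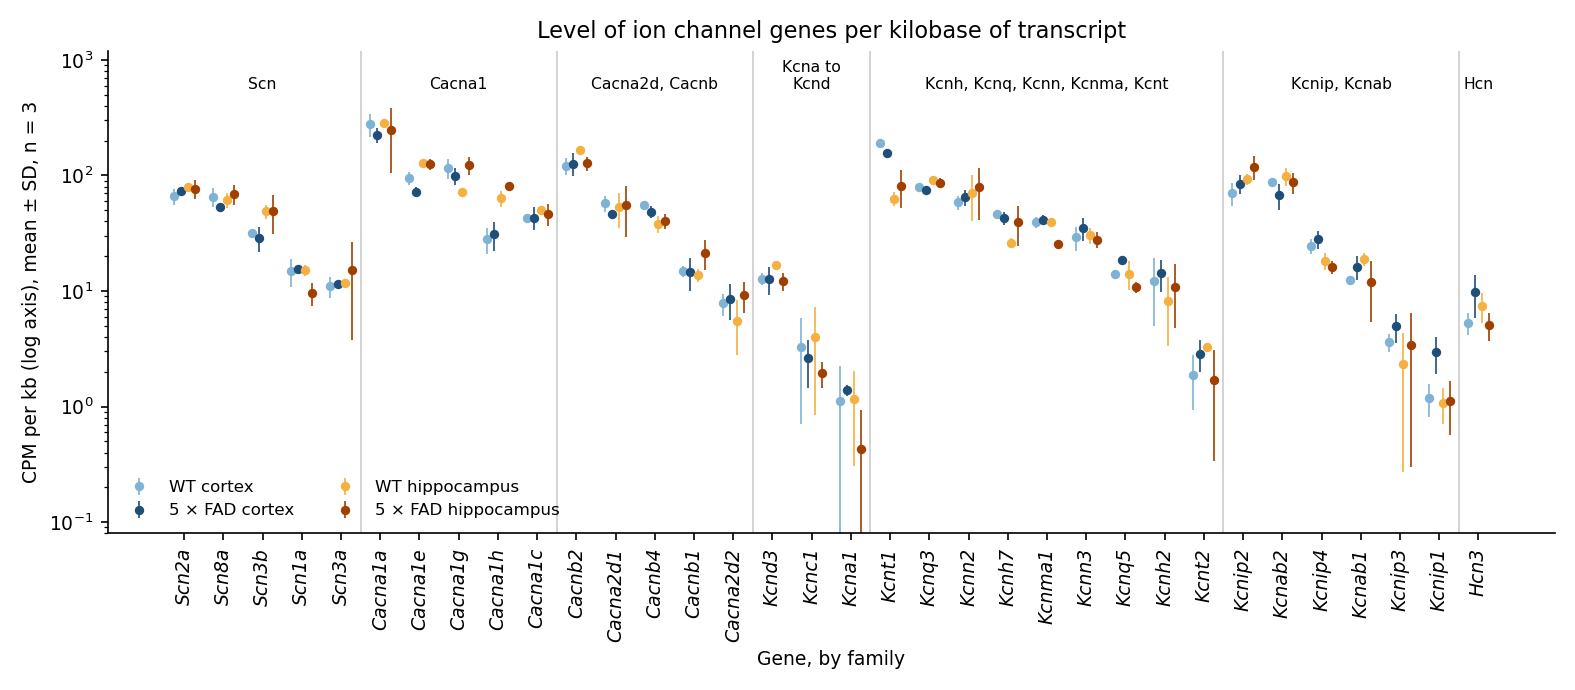
Mean ± SD (n = 3 libraries) of CPM per kilobase for the 34 genes with a row, by family, on a log axis; each colour is a group, and lower bars that would reach 0 are cut at the axis. Cacna1a had the highest mean over all libraries, Kcnt1 was lower in both hippocampal groups than in both cortical groups, and Kcna1 was lowest.

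Within each family, the genes with the highest CPM are described first. Scn2a, which encodes the sodium channel of excitatory axons, held 94.1, 85.5 and 78.9 CPM in WT cortex, 97.0, 83.5 and 89.3 in 5 × FAD cortex, 91.3, 115.9 and 98.7 in WT hippocampus and 96.3, 111.5 and 91.4 in 5 × FAD hippocampus. Cacna1a held 331.0, 221.0 and 277.2 CPM in WT cortex, 242.2, 176.8 and 215.9 in 5 × FAD cortex, 281.3, 260.3 and 249.5 in WT hippocampus and 128.7, 190.3 and 383.5 in 5 × FAD hippocampus. For both genes the regions overlapped within each genotype, as did the genotypes within each region, and Cacna1a varied most in 5 × FAD hippocampus.

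Cacnb2, a calcium channel beta subunit that brings the pore to the membrane, held 380.1, 414.6 and 299.9 CPM in WT cortex, 316.8, 353.1 and 470.7 in 5 × FAD cortex, 461.1, 513.0 and 476.8 in WT hippocampus and 358.5, 427.3 and 392.6 in 5 × FAD hippocampus. Cacna2d1, an alpha2delta subunit that supports channel trafficking, held 75.5, 90.3 and 71.5 CPM in WT cortex, 75.0, 63.0 and 70.7 in 5 × FAD cortex, 62.3, 65.6 and 106.4 in WT hippocampus and 107.0, 67.0 and 61.3 in 5 × FAD hippocampus. Cacnb2 was above its WT cortex range in all 3 WT hippocampal libraries, while the Cacna2d1 groups overlapped between regions within each genotype.

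Kcnd3, an A-type potassium channel subunit, held 40.1, 47.9 and 41.6 CPM in WT cortex, 43.8, 33.8 and 51.5 in 5 × FAD cortex, 54.6, 53.7 and 54.9 in WT hippocampus and 30.4, 43.8 and 54.7 in 5 × FAD hippocampus. Its partner Kcnip2, a calcium-binding protein that modulates A-type channels, held 220.1, 268.0 and 170.1 CPM in WT cortex, 230.9, 238.0 and 322.2 in 5 × FAD cortex, 257.9, 286.0 and 321.7 in WT hippocampus and 460.5, 281.5 and 383.5 in 5 × FAD hippocampus. Kcnab1, a beta subunit of Shaker-type channels, held 42.0, 40.4 and 35.0 CPM in WT cortex, 34.3, 52.9 and 60.8 in 5 × FAD cortex, 51.4, 65.2 and 55.4 in WT hippocampus and 20.7, 31.8 and 58.6 in 5 × FAD hippocampus. For Kcnd3 and Kcnab1 the 3 WT hippocampal libraries lay above all WT cortical libraries, and the 5 × FAD regions overlapped for both. Kcnip2 overlapped between regions in both genotypes. Kcnc1, a fast-spiking potassium channel subunit, held 1.41, 3.22 and 0.57 CPM in WT cortex, 1.33, 0.798 and 2.04 in 5 × FAD cortex, 2.13, 3.82 and 0.454 in WT hippocampus and 1.24, 1.15 and 0.739 in 5 × FAD hippocampus, near the counting floor.

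Replicate libraries of one group differed by more than 2-fold in 4 of 32 channel genes in WT cortex, 5 in 5 × FAD cortex, 3 in WT hippocampus and 9 in 5 × FAD hippocampus. Over all 12104 genes and loci tested, the same was true of 26.3%, 26.7%, 23.1% and 35.6%, so 5 × FAD hippocampus was the most uneven group for channels and for all genes. One of these 9 was Scn3a, a sodium channel of the developing brain, at 99.3, 40.8 and 21.4 CPM in 5 × FAD hippocampus against 37.8 to 44.0 CPM in WT hippocampus.

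The first comparison asked how the hippocampus differs from the cortex in WT mice. Counts summed per gene were lower in the hippocampus for 2 of 32 channel genes, Kcnt1 and Kcnh7, and higher for 0, at an adjusted p under 0.05 (edgeR, quasi-likelihood F test, Benjamini-Hochberg). Genes that fell at that threshold made up 1.59% of all genes tested. At an unadjusted p under 0.05 there were 9 channel genes, 6 higher and 3 lower, against 17.3% of all genes, and for 12 genes, 8 higher and 4 lower, the 3 hippocampal libraries did not overlap the 3 cortical ones, against 24.9% of all genes. The median log2 fold change was 0.02 over the channel genes and -0.02 over all genes tested.

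Kcnt1 encodes a sodium-activated potassium channel that follows bursts of firing. Its gene sum was 822.6, 845.8 and 727.5 CPM in WT cortex and 264.1, 266.5 and 297.2 CPM in WT hippocampus, or 798.6 ± 62.7 against 275.9 ± 18.5 (SD, n = 3). Every hippocampal library was below every cortical one, and the gene fell by 1.55 on the log2 scale (SE 0.12, edgeR adjusted p = 0.0031). This fit does not pair the regions, and with the library number as a block the adjusted p was 0.054 at the same log2 difference. In 5 × FAD mice it was 713.7, 624.1 and 722.2 CPM in cortex and 368.9, 253.8 and 472.0 CPM in hippocampus, again without overlap, with a log2 difference of -0.92 ± 0.25 (SE) and an edgeR adjusted p of 0.212.

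Most of the Kcnt1 sum came from 2 rows. Kcnt1-206 (ENSMUST00000131529, chr2:25877870-25917080, 30 exons, 6639 bases) held 73.06% of the gene's counts and Kcnt1-207 (ENSMUST00000138568, chr2:25894343-25916592, 20 exons, 3299 bases) 15.22%. Of the 3299 bases of Kcnt1-207, 91.3% are also in Kcnt1-206, and none of its 287 bases outside coding transcripts are. These 287 bases, part of which is printed above, are shared in full with the shorter Kcnt1-208, so reads cannot always be assigned to one of the 3 rows.

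Kcnt1-206 had 539.7, 573.6 and 485.2 CPM in WT cortex and 230.6, 186.2 and 263.3 CPM in WT hippocampus. It fell by 1.25 on the log2 scale (SE 0.17, edgeR adjusted p = 0.0371), and its regions did not overlap in 5 × FAD mice either, at 503.3, 429.3 and 623.6 CPM in cortex and 273.8, 221.7 and 317.8 CPM in hippocampus. Its call was lost when any 1 of the 6 libraries was left out. Kcnt1-207 had few counts in the WT hippocampus, with 847, 858 and 549 counts in WT cortex and 17, 16 and 9 in WT hippocampus. It fell by 5.90 on the log2 scale (SE 0.28, edgeR adjusted p = 0.00569).

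In 5 × FAD mice Kcnt1-207 did not follow region. The counts were 611, 513 and 36 in cortex and 255, 8 and 398 in hippocampus, so that library 3 of the cortex and library 2 of the hippocampus were low and the other 4 were high. As a share of Kcnt1-206 and Kcnt1-207 together, Kcnt1-207 took 24.2% to 27.1% in WT cortex and 0.8% to 1.8% in WT hippocampus, and in 5 × FAD libraries it took either 18.6% to 24.3% or 0.8% to 1.3%. Without Kcnt1-207 and 3 other rows with such jumps (Cacna1g-216, Cacnb2-204 and Cacnb2-211), a choice made after the data were seen, the Kcnt1 sum still fell in WT hippocampus, by 1.20 on the log2 scale (edgeR adjusted p = 0.00664).

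**Figure D2:**
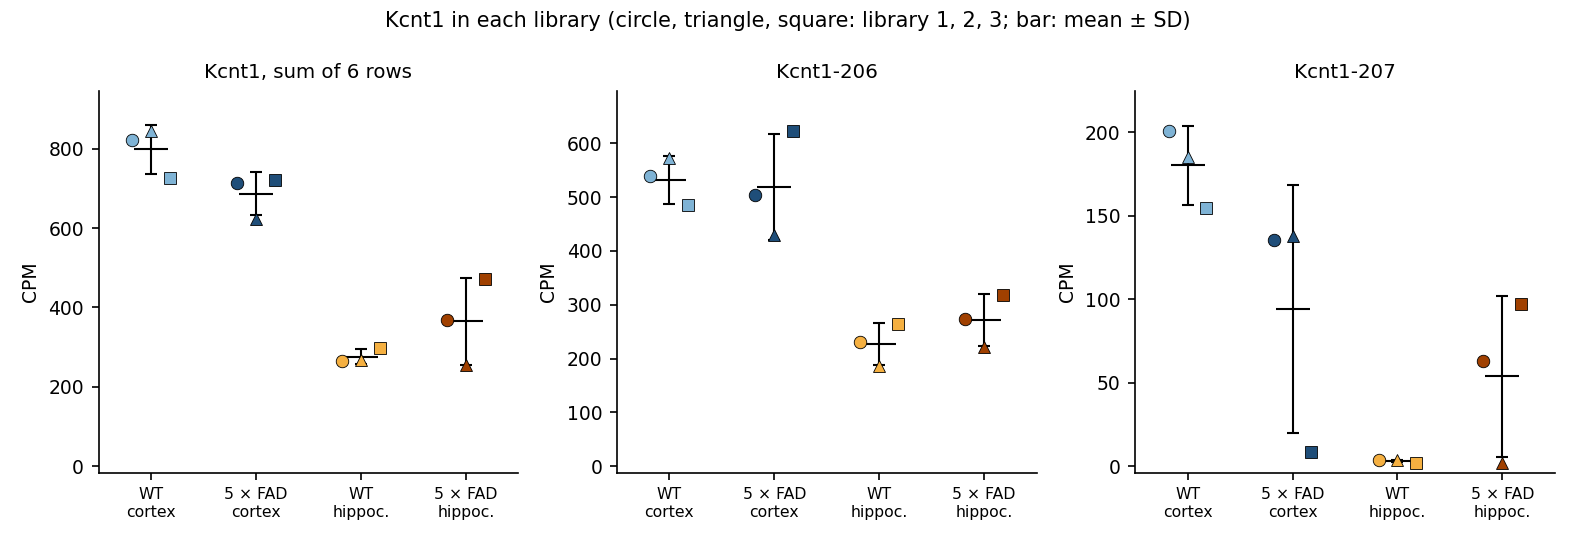
CPM of Kcnt1 in each of the 12 libraries as the sum of its 6 rows, for Kcnt1-206 and for Kcnt1-207; symbols are libraries 1 to 3 of a group and bars are mean ± SD. The gene sum and Kcnt1-206 lay lower in every hippocampal library of a genotype than in its cortical libraries, while Kcnt1-207 ran from 1.84 to 97.1 CPM within 5 × FAD hippocampus.

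Kcnh7 encodes an ether-à-go-go-related potassium channel and was measured by the single row Kcnh7-204 (ENSMUST00000131799, chr2:63181469-63184262), which lies near the gene's 5′ end and has 587 bases outside the exons of coding transcripts. It had 50.4, 48.4 and 50.1 CPM in WT cortex and 31.1, 27.2 and 26.8 CPM in WT hippocampus, without overlap, and fell by 0.83 on the log2 scale (SE 0.14, edgeR adjusted p = 0.0267). In the fit over single rows the adjusted p was 0.0648, on gene sums it was 0.0635 to 0.116 when any 1 of the 6 libraries was left out, and with the library number as a block it was 0.12. In 5 × FAD mice the regions overlapped, at 49.6, 48.9 and 39.0 CPM in cortex and 61.7, 35.2 and 31.5 CPM in hippocampus.

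On single rows in WT mice, 2 of 83 channel rows fell at an adjusted p under 0.05, both of Kcnt1, and 0 rose, against 0.404% of all rows that fell. At an unadjusted p under 0.05 there were 16, 8 in each direction, against 12.8% of all rows.

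In 5 × FAD mice, the same comparison of hippocampus with cortex called 0 of 32 genes by edgeR, against 0.193% of all genes tested. DESeq2 called 3 (Cacna1h and Cacna1e higher, Kcnt1 lower), against 336 of all 11399 genes. At an unadjusted p under 0.05 there were 10, 4 higher and 6 lower, against 12.6% of all genes, and for 9 genes, 4 higher and 5 lower, the regions did not overlap, against 19.2%. On single rows edgeR called 0 of 84, against 0.0182% of all rows, and DESeq2 called 2, against 366 of all 22016 rows. In edgeR 16 rows had an unadjusted p under 0.05, against 9.38%. Fewer genes of every kind were called by edgeR here than in WT mice, 22 against 399.

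The WT and 5 × FAD region comparisons share no library. In 5 genes (Cacna1e, Cacna1h, Kcnip4, Kcnt1 and Scn3b) the regions did not overlap in either genotype, with the same direction in both. In 20 of 32 genes the sign was the same in both. The share of all genes that met either criterion was not computed, so neither count can be set against the background. Within a single genotype, the regions did not overlap in 24.9% of all genes in WT and 19.2% in 5 × FAD mice. A fit of all 12 libraries with genotype as a covariate, added after the data were seen, called these 5 genes, 3 higher and 2 lower in the hippocampus, against 6.66% of all genes tested. On single rows it called 4 of 90, against 2.63% of all rows, with Cacna1e-202, Cacna1h-210 and Cacna1h-203 higher and Kcnt1-206 lower. That fit treats both regions of a mouse as independent.

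Cacna1h, a T-type calcium channel that opens at low voltages and supports burst firing, was the channel gene with the highest positive value in each genotype among those whose regions did not overlap. It had 24.4, 39.5 and 25.9 CPM in WT cortex, 66.3, 58.8 and 53.8 in WT hippocampus, 31.9, 22.1 and 44.0 in 5 × FAD cortex and 90.6, 97.9 and 74.6 in 5 × FAD hippocampus. All 6 hippocampal libraries were above all 6 cortical ones, by 0.97 ± 0.22 on the log2 scale in WT mice (SE, edgeR adjusted p = 0.0685) and 1.42 ± 0.28 in 5 × FAD mice (adjusted p = 0.0971), and the fit over both genotypes gave 1.21 ± 0.19 (adjusted p = 0.00216). The gene's 4 rows are spread along the gene, from Cacna1h-203 near the 5′ end to Cacna1h-204 near the 3′ end.

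Cacna1e, which encodes the R-type calcium channel, had 442.0, 355.3 and 351.5 CPM in WT cortex, 475.0, 517.2 and 479.3 in WT hippocampus, 326.3, 277.6 and 268.9 in 5 × FAD cortex and 495.4, 410.5 and 525.4 in 5 × FAD hippocampus. The fit over both genotypes put the gene higher in the hippocampus by 0.54 ± 0.11 on the log2 scale (SE, edgeR adjusted p = 0.0132). The difference was larger for its row Cacna1e-202, a single exon of 1859 bases at chr1:154882166-154884024 near the gene's 5′ end. That row had 48, 76 and 35 counts in WT cortex, 110, 200 and 140 in WT hippocampus, 49, 32 and 46 in 5 × FAD cortex and 136, 146 and 181 in 5 × FAD hippocampus, and was higher in the hippocampus by 1.63 ± 0.20 (SE, adjusted p = 0.00131) over both genotypes.

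Scn3b, an auxiliary beta subunit of sodium channels, had 46.7, 51.6 and 44.4 CPM in WT cortex, 63.6, 70.9 and 84.6 in WT hippocampus, 34.5, 39.1 and 53.3 in 5 × FAD cortex and 55.0, 60.4 and 105.2 in 5 × FAD hippocampus. It was higher in the hippocampus by 0.71 ± 0.18 (SE, adjusted p = 0.0303) over both genotypes, and Scn3b-204 carried 98.85% of its counts. Kcnip4, a partner of A-type channels, had a log2 difference of -0.75 ± 0.20 (SE, edgeR adjusted p = 0.0423), with 26.0, 17.6 and 22.2 CPM in WT cortex, 16.6, 17.2 and 15.4 in WT hippocampus, 30.5, 17.8 and 34.2 in 5 × FAD cortex and 11.0, 13.4 and 14.5 in 5 × FAD hippocampus. Every hippocampal library of Kcnip4 was below every cortical library, narrowly so in WT mice (17.2 against 17.6 CPM).

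**Figure D3:**
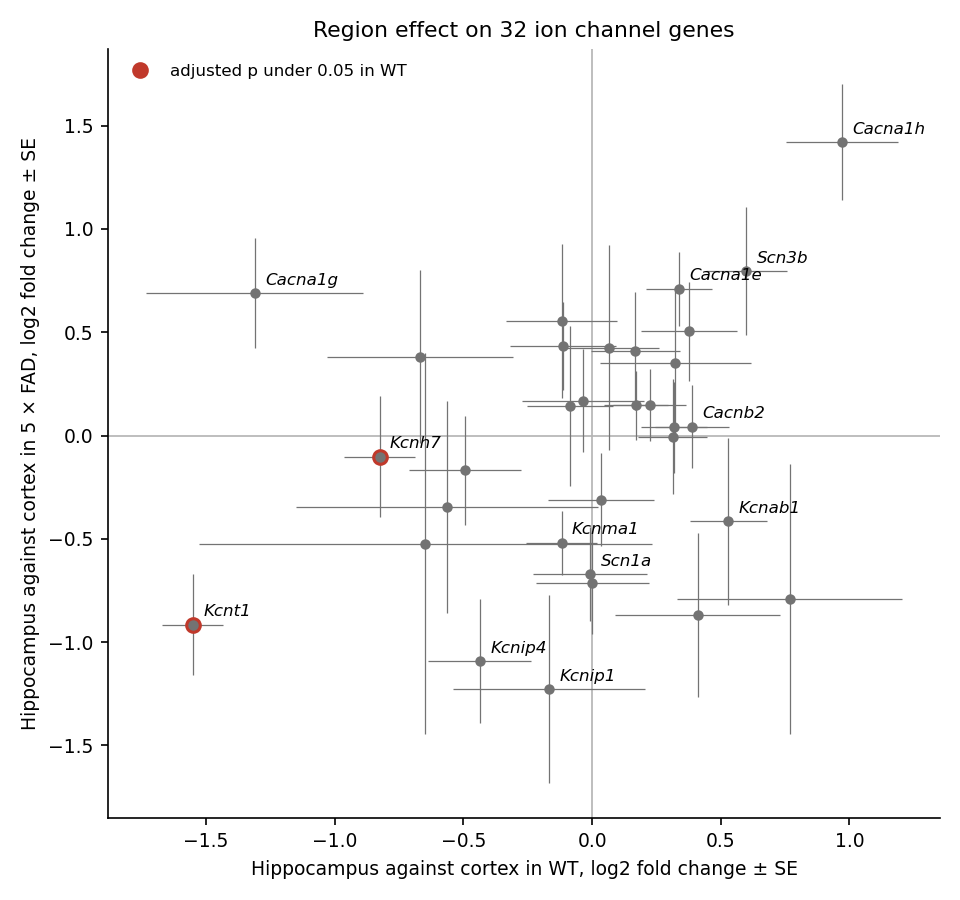
Log2 fold change ± SE of hippocampus against cortex for 32 channel genes in WT (horizontal axis) and 5 × FAD mice (vertical axis), from separate fits of 6 libraries each; red points were called in WT. Kcnt1 lay at -1.55 in WT and -0.92 in 5 × FAD mice, Cacna1h at 0.97 and 1.42, and Cacna1g on opposite sides of 0.

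**Figure D4:**
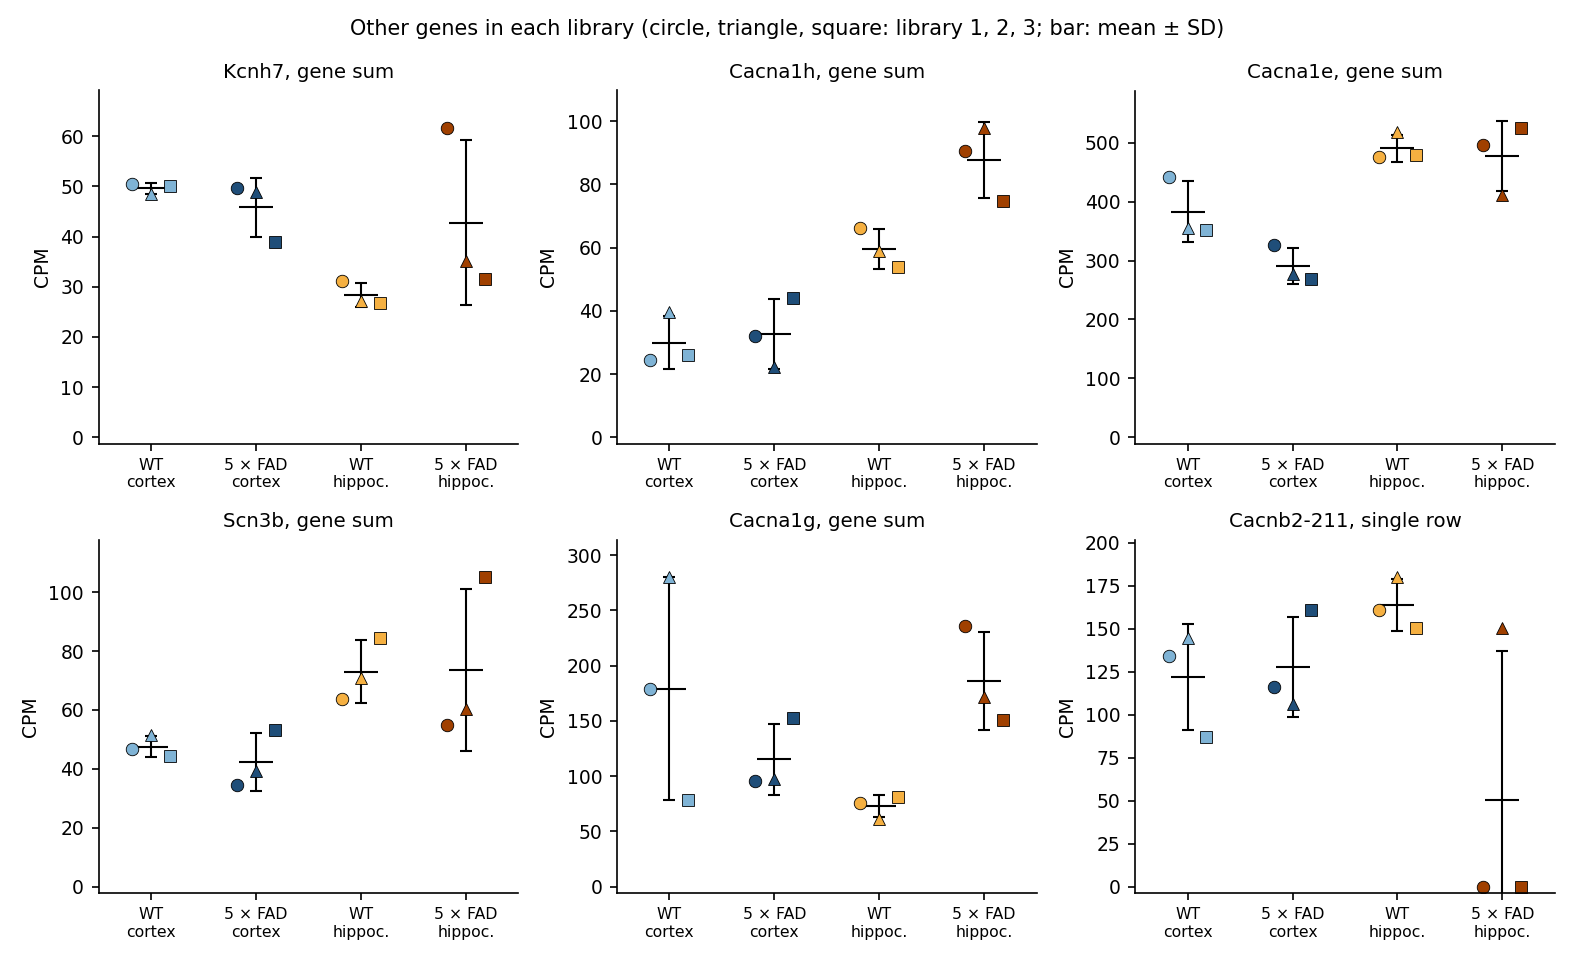
CPM of 5 gene sums and of the row Cacnb2-211 in each library, with symbols for libraries 1 to 3 of a group and bars for mean ± SD. Cacna1h and Cacna1e were higher in every hippocampal library than in the cortical libraries of the same genotype, Cacna1g was low in WT hippocampus, and Cacnb2-211 was at 0 in 2 of 3 libraries of 5 × FAD hippocampus.

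Markers of each tissue were checked on the same table. Of 18 hippocampal marker genes, 8 had a row, and their sum was 108.8 to 141.9 CPM in the 6 cortical libraries and 244.6 to 296.7 CPM in the 6 hippocampal ones, so that the regions did not overlap. Of 21 cortical markers 13 had a row, and their sum was 1208.9 to 1881.1 CPM in WT cortex, 1619.4 to 2322.8 in 5 × FAD cortex, 1811.7 to 2576.8 in WT hippocampus and 1666.9 to 2427.2 in 5 × FAD hippocampus. In WT mice 8 of the 13 were lower and 2 higher in the hippocampus at an unadjusted p under 0.05, and edgeR called 3 lower (Mef2c, Cux1 and Otof) and 0 higher after adjustment. Ptk2b was among those with a higher value, at 1.65 ± 0.39 on the log2 scale (SE, edgeR adjusted p = 0.0795). DESeq2 called 8 of the 13 in WT mice (Cux1, Foxp2, Lamp5, Mef2c, Nr4a2, Otof, Ptk2b and Stx1a). In 5 × FAD mice edgeR called 0 of the 13, DESeq2 called 2, and 6 had an unadjusted p under 0.05, 1 higher and 5 lower. Zbtb20, a hippocampal marker, was higher in the hippocampus of both genotypes. Of 12 striatal markers 7 had a row, and their sum was 284.0 to 451.2 CPM in WT cortex, 569.4 to 588.2 in 5 × FAD cortex, 142.3 to 310.5 in WT hippocampus and 110.3 to 232.0 in 5 × FAD hippocampus. Choroid plexus markers, of which 3 of 8 had a row, summed to 1.6 to 10.7 CPM in cortex and 7.22 to 47.5 CPM in hippocampus, and 1 of these was at 0 in every library. Thalamic markers, 7 of 7 with a row, summed to 80.9 to 364.8 CPM in cortex and 116.5 to 249.5 CPM in hippocampus. The part of these cells in the channel differences was not tested, and in bulk tissue fewer cells of a type and less RNA per cell cannot be told apart.

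The second comparison asked how 5 × FAD mice differ from WT mice in each region. In the hippocampus edgeR called 0 of 32 genes, against 0.0529% of all genes tested. DESeq2 called 1, Cacna1g, against 83 of all 11343 genes. There 4 genes had an unadjusted p under 0.05, 2 higher and 2 lower, against 8.69% of all genes, and 8 did not overlap between genotypes, 3 higher and 5 lower, against 16.5%. On single rows edgeR called 0 of 84, against 0.0183% of all rows. DESeq2 called 2 (Cacna1g-216 and Kcnt1-207), against 127 of all 21894 rows. In edgeR 8 rows had an unadjusted p under 0.05, against 7.58%. In the cortex both tools called 0 of 32 genes, against 0.0175% of all genes in edgeR and 53 of all 11404 genes in DESeq2. In edgeR 2 genes had an unadjusted p under 0.05, against 6.67%, and 5 genes did not overlap, against 13.1%. On single rows of the cortex both tools called 0 of 83, against 0.0545% in edgeR and 102 of all 21999 rows in DESeq2. By edgeR 6 had an unadjusted p under 0.05, against 5.34%. The median log2 fold change over the channel genes was 0.01 in the hippocampus and 0.03 in the cortex.

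Cacna1g, the T-type channel best known from thalamic burst firing, had the smallest p in the hippocampus. Its gene sum was 75.9, 61.6 and 81.4 CPM in WT hippocampus and 236.2, 171.8 and 150.8 in 5 × FAD hippocampus, or 73.0 ± 10.3 against 186.3 ± 44.5 (SD, n = 3). The genotypes did not overlap, with a log2 difference of 1.38 ± 0.23 (SE, edgeR unadjusted p = 0.000434, adjusted p = 0.269), and DESeq2 gave an adjusted p of 0.000243. In the cortex, by contrast, the groups overlapped, at 179.2, 280.3 and 78.0 CPM in WT and 95.9, 97.3 and 152.4 CPM in 5 × FAD.

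The row Cacna1g-216 (ENSMUST00000152811, 23 exons) held 51.27% of the gene's counts. It had 119, 36 and 128 counts in WT hippocampus and 617, 492 and 220 in 5 × FAD hippocampus, and in WT cortex alone it ran from 33 to 983. Without that row and the 3 other variable rows the log2 difference of the Cacna1g sum was 0.63, with an edgeR adjusted p of 0.532. With all rows, in the hippocampal libraries with Y-linked transcripts (3 WT and 1 5 × FAD), it was 1.07 (edgeR adjusted p = 0.212). With 1 library in the 5 × FAD group, that fit takes its spread from the WT libraries alone, as do the other values given for libraries with Y-linked transcripts.

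Kcnma1, the pore of the large-conductance calcium-activated potassium channel, had 429.3, 418.9 and 385.4 CPM in WT hippocampus and 268.1, 279.6 and 298.8 in 5 × FAD hippocampus. The genotypes did not overlap, and the log2 difference was -0.52 ± 0.145 (SE, edgeR unadjusted p = 0.00851, adjusted p = 0.526). Nearly all of it was Kcnma1-205 (97.73% of the counts), the only protein-coding row, with 12094 bases. Cortical values were 515.9, 390.8 and 416.2 CPM in WT against 400.5, 420.7 and 388.6 in 5 × FAD, and in the hippocampal libraries with Y-linked transcripts the log2 difference was -0.44.

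Cacna1h was higher by 0.58 ± 0.18 on the log2 scale in 5 × FAD than in WT hippocampus (SE, edgeR unadjusted p = 0.014, adjusted p = 0.526), from the non-overlapping values given above, and by 0.34 in the libraries with Y-linked transcripts. Scn1a, the sodium channel of fast-spiking inhibitory neurons, had 44.8, 49.7 and 40.2 CPM in WT hippocampus and 22.7, 27.6 and 35.7 in 5 × FAD hippocampus, a log2 difference of -0.62 ± 0.22 (adjusted p = 0.532). Its 5 × FAD value was highest in library 3, and in the libraries with Y-linked transcripts the difference was -0.31. In the cortex it had 37.8, 36.8 and 59.0 CPM in WT against 43.2, 48.9 and 44.7 in 5 × FAD. Cacnb1, a calcium channel beta subunit, had 11.1, 8.71 and 11.1 CPM in WT against 19.2, 10.6 and 19.2 in 5 × FAD hippocampus, and 10.1, 11.4 and 11.7 in WT against 13.5, 6.65 and 12.9 in 5 × FAD cortex, with overlap in both regions (log2 difference 0.69 in the hippocampus, 0.92 in the libraries with Y-linked transcripts).

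In the cortex the smallest p belonged to Kcnip1, another partner of A-type channels, at 6.57, 4.08 and 3.99 CPM in WT against 6.64, 12.0 and 13.8 in 5 × FAD. The lowest 5 × FAD library lay just above the highest WT library, and the log2 difference was 1.14 ± 0.38 (SE, edgeR unadjusted p = 0.0194, adjusted p = 0.725). Cacna1e was lower in 5 × FAD cortex by -0.40 ± 0.15 (adjusted p = 0.737) without overlap. Kcnq5, an M-type potassium channel that damps repetitive firing, had 11.5, 13.1 and 12.0 CPM in WT against 17.0, 16.2 and 15.4 in 5 × FAD cortex, a log2 difference of 0.41 ± 0.19 (adjusted p = 0.752). Hcn3, the only HCN gene with a row, had 5.87, 4.51 and 3.99 CPM in WT against 8.19, 5.58 and 11.8 in 5 × FAD cortex, and both Hcn3 and Cacna1a overlapped between genotypes. In the hippocampus Kcnip1 had 6.19, 3.61 and 3.4 CPM in WT against 7.22, 3.69 and 2.96 in 5 × FAD. In the cortical libraries with Y-linked transcripts the log2 differences were 1.49 for Kcnip1, -0.51 for Cacna1e, 0.34 for Kcnq5, 1.29 for Hcn3 and -0.36 for Cacna1a.

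**Figure D5:**
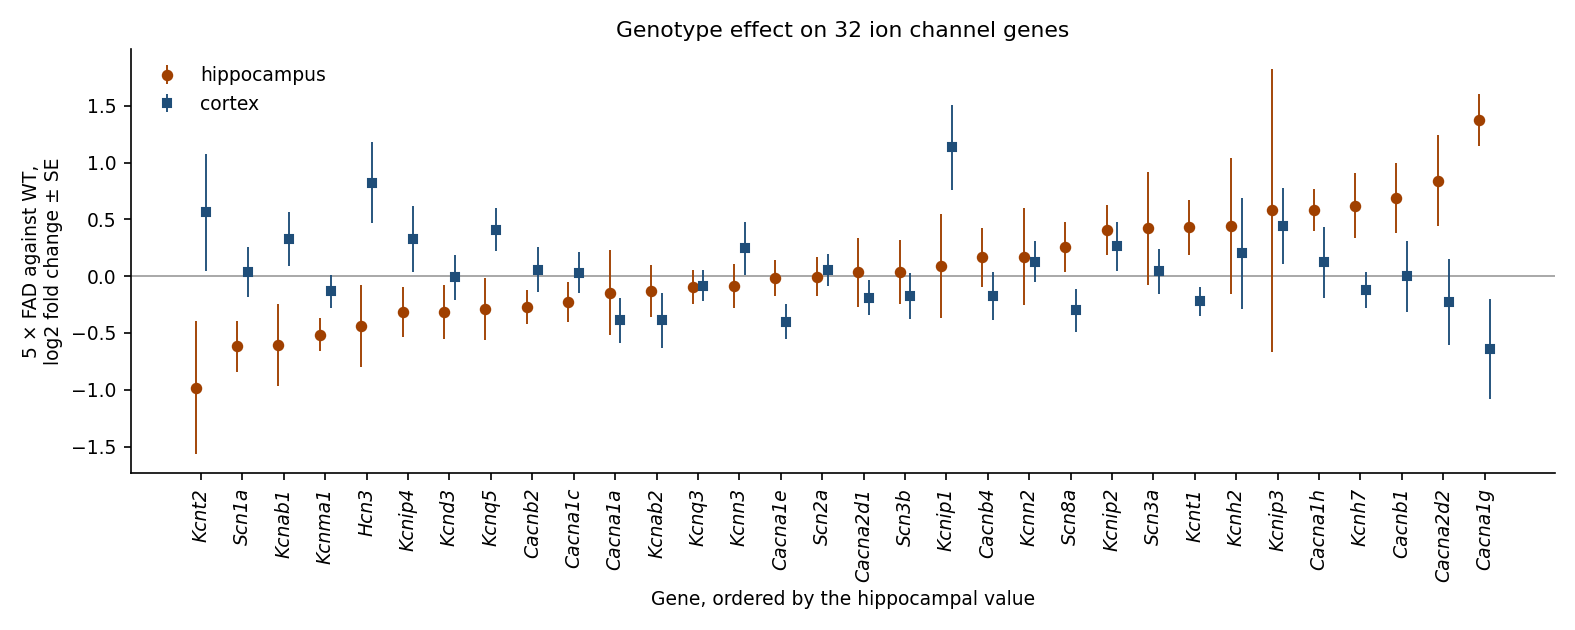
Log2 fold change ± SE of 5 × FAD against WT for 32 channel genes, in hippocampus (circles) and cortex (squares), ordered by the hippocampal value. Values scatter on both sides of 0 in both regions, none was called by edgeR, and Cacna1g lies at 1.38 in hippocampus.

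In 2 rows of Cacnb2 single libraries held few or no counts. Cacnb2-211 (ENSMUST00000193452) had 309 to 844 counts in 10 libraries, and 0, 653 and 0 in 5 × FAD hippocampus. Only 18 of its 2802 bases lie outside the exons of coding transcripts, and 99.4% of them are also in Cacnb2-210. In the libraries with 0 counts of Cacnb2-211, Cacnb2-210 had 894 and 1029 counts, against 574 in the library with 653, and the Cacnb2 gene sum there (358.5 and 392.6 CPM) was beside that of the other library (427.3 CPM).

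Cacnb2-204 had 3 counts in library 2 of 5 × FAD cortex and 1 count in library 2 of 5 × FAD hippocampus, against 51 to 165 in the other 10 libraries. It shares 94.2% of its bases with Cacnb2-207, which had 217 and 283 counts in these libraries. Of the channel rows that reached 100 counts, 1 of 40 in cortex and 2 of 44 in hippocampus also had a library of the same region with 3 counts or fewer, against 7.79% and 7.71% of all rows that reached 100 counts.

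The difference of the genotype effect between regions was tested as an interaction over all 12 libraries. Both edgeR and DESeq2 called 0 of 32 channel genes, against 0% of all genes in edgeR and 20 of all 12104 genes in DESeq2. By edgeR 5 had an unadjusted p under 0.05, against 7.01%. On single rows both called 0 of 90, against 0.00812% in edgeR and 91 of all 24632 rows in DESeq2. By edgeR 9 had an unadjusted p under 0.05, against 6.89%. The smallest p was that of Cacna1g, at 1.99 ± 0.54 on the log2 scale (SE, unadjusted p = 0.00342, adjusted p = 0.647), followed by Hcn3 at -1.29, Kcnq5 at -0.73, Kcnt1 at 0.62 and Kcnma1 at -0.41. In the hippocampus Hcn3 had 4.48, 7.01 and 7.94 CPM in WT against 3.73, 4.15 and 6.16 in 5 × FAD, and Kcnq5 gave 15.1, 10.8 and 11.1 in WT hippocampus and 8.71, 8.98 and 12.1 in 5 × FAD. Without the 4 variable rows the Cacna1g value was 0.64. The interaction shares its libraries with the comparisons above.

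Microglial markers, of which 6 of 15 had a row, summed to 35.7 to 71.6 CPM in WT libraries and 40.6 to 256.1 CPM in 5 × FAD libraries. In the hippocampus alone the sum was 35.7 to 44.9 CPM in WT and 53.2 to 211.5 CPM in 5 × FAD libraries, without overlap. In the cortex the genotypes overlapped. Of the 3 tested edgeR called 0 in every comparison and DESeq2 called 1, Trem2, for genotype in the hippocampus. Inhibitory neuron markers, 6 of 10 with a row, ran from 44.7 to 2478.9 CPM and overlapped in every comparison. Oligodendrocyte markers, 8 of 14 with a row, summed to 385.1 to 591.5 CPM in WT and 601.7 to 762.5 CPM in 5 × FAD libraries, without overlap. Gene by gene, edgeR called 0 of 8 for genotype in either region. The median log2 fold change was -0.16 in the hippocampus and 0.55 in the cortex. An unadjusted p under 0.05 was found for 1 and 3 of them, all higher. Astrocyte markers, 7 of 10 with a row, summed to 1028.9 to 1661.8 CPM in WT and 581.4 to 1601.8 CPM in 5 × FAD libraries. In the hippocampus alone their sum was 1534.5 to 1612.7 CPM in WT and 581.4 to 1255.8 CPM in 5 × FAD libraries, without overlap. Of 6 tested there, edgeR called 0. The part of these cell types in the channel values was not tested.

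A wider list of 81 channel and channel-associated genes outside the 50 was also examined. Of these, 41 had a row and 28 to 31 were tested in each comparison, and edgeR called 0 in all 5 comparisons. Unadjusted p under 0.05 was found for 4 of 31 genes for region in WT (17.3% of all genes), 4 of 29 for region in 5 × FAD (12.6%), 1 of 28 for genotype in the hippocampus (8.69%), 4 of 30 for genotype in the cortex (6.67%) and 0 of 31 for the interaction (7.01%). DESeq2 called Dpp10, a partner of A-type channels, lower in the hippocampus of both genotypes (log2 difference -1.42 ± 0.31 in WT and -1.38 ± 0.36 in 5 × FAD by edgeR).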

How the data were processed

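Total RNA of the cortex and hippocampus of WT and 5 × FAD mice had been depleted of ribosomal RNA and sequenced as stranded libraries, per the labels. The study's methods add RNase R, which removes linear RNA, for its circular RNA libraries. It is absent from the labels here, and its use on the present libraries is unknown. The authors deposited a table of raw counts per transcript, without normalization. Trimmomatic 0.36 and edgeR are named in the submitters' processing notes. For the aligner, the counter, the build and its annotation, the answer is not given in the sources used here. The values are whole numbers.

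All 12 columns were used and 0 were left out. Of 45597 Ensembl identifiers 45372 matched GENCODE M21 (GRCm38), 225 did not, and 2436 rows were assembled transcripts, which left 22103 genes and loci after summing. Gene sums and single rows were tested over the whole table with edgeR 4.0.16 in R 4.3.3 (filterByExpr, TMM, glmQLFit, glmQLFTest, Benjamini-Hochberg adjusted p under 0.05), with the 6 libraries of a comparison in each fit and 12 for the interaction. SE is the log2 fold change divided by the square root of F. All p-values are two-sided. DESeq2 1.42.0, other scalings and filters, the replicate number as a block and leaving out each library were alternatives. The test was checked on simulated counts. Figures used Python 3.11.15 and matplotlib 3.10.9.

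Members are found by gene name alone, but the group, its families and the marker lists were chosen with earlier results of these data known. Genes were named by rule, as those called in a comparison (up to 8 per direction), the 5 smallest p-values for genotype and interaction, the 2 most abundant genes of each family and rows with at least 100 counts in one library and at most 3 in another of the same region. Cacna1h, Cacna1e, Scn3b and Kcnip4 in the region comparison, Cacna1g-216, Cacna1e-202, Scn3a and Dpp10 were named after their values were seen. Replicates of each group differed by more than counting noise. The study's methods describe 3 mice a group, and p-values measure only the spread between these samples. The lists named are hippocampal, cortical, striatal, thalamic, choroid plexus, oligodendrocyte, astrocyte, microglial and inhibitory neuron markers and other channel genes. A result that needs a withheld item is not reported here.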

Additional observations from a re-analysis of the deposited data

How the results depend on the processing

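Of the counts of calls, 134 were within 1.5 times the reported count under an alternative and 31 were not. Most of the 134 were counts of 0 that stayed at 0. Only the counts for region in WT mice were above 0 in the main fits, and most alternatives moved them beyond 1.5 times. Of the values of single genes or rows, 554 kept their direction and side of the threshold, 29 newly passed it, 23 no longer did and 2 reversed. For region in WT mice the 2 channel genes called became 1 with assembled transcripts left out and 4 with DESeq2. They became 1 with all 12 libraries in one fit, 5 over both genotypes and 1 to 2 when a library was left out. The 2 rows called became 1, 6, 2, 4 and 1 in that order, and 1 with no filter on low counts. With all 12 libraries in one fit, 1 of the 2 rows called was higher and 1 lower in the hippocampus. The 2 rows of the main fit were both lower. For region in 5 × FAD mice the 0 genes called became 3 with DESeq2, 3 with all 12 libraries and 5 over both genotypes, and the 0 rows became 2, 1 and 4. Over the whole table, DESeq2 called 761 of 11429 genes for region in WT and 336 of 11399 in 5 × FAD mice. For rows these were 743 of 22007 and 366 of 22016. For genotype in the hippocampus, 0 genes became 1 and 0 rows became 2 with DESeq2, against 83 of all 11343 genes and 127 of all 21894 rows. Rows there became 1 in the libraries with Y-linked transcripts, where the lone 5 × FAD library is assumed to vary like the WT libraries, and 0 to 1 when a library was left out, the call being Cacnb2-211 without 5 × FAD hippocampus library 2. For the interaction 0 rows became 0 to 1, again without that library. Kcnh7 for region in 5 × FAD mice was between -0.46 and 0.07 on the log2 scale when a hippocampal library was left out, with 0.02 and 0.07 without libraries 2 and 3. The cause was not tested. The 3-count floor and 3 libraries a group limit what can be seen in genes under 10 CPM.

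With the replicate number as a block, the counts called for region in WT mice were 0 genes and 0 rows, with an edgeR adjusted p of 0.054 for Kcnt1 and 0.12 for Kcnh7. Same-numbered libraries of the 2 regions had correlated deviations of -0.036 to 0.261, with 1 of 6 pairs over 0.1, and 4 of 12 libraries correlated best with their own number. On single rows the pairs had 0.006 to 0.132, again with 1 of 6 over 0.1, and 7 of 12 libraries correlated best with their own number. The pair over 0.1 was library 3 of 5 × FAD cortex and hippocampus in both cases, the only 5 × FAD libraries with Y-linked transcripts. Since the other pairs were not over 0.1 and the labels do not tie numbers to mice, the numbers were not taken to pair the samples. The regions nevertheless come from the same mice. Over all genes the block took the calls from 399 to 5 for region in WT mice and from 22 to 0 in 5 × FAD mice. For genotype it took them from 6 to 2 in hippocampus and 2 to 0 in cortex. There the block joined WT and 5 × FAD libraries of different mice by number alone, so it is not a check on pairing. Channel genes with an unadjusted p under 0.05 went from 9 to 6, 10 to 8, 4 to 5 and 2 to 2, and from 5 to 3 for the interaction. In comparisons other than region in WT mice, 0 channel genes and rows were called with and without it.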
